A study of Mus musculus with 10 samples.

Results

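The 400 regions with the most reads in control atrial cardiomyocyte nuclei were described here, out of 5327 regions that the authors listed as differing between Prrx1(R1A)-/- and control mice. They made up 7.51% of the listed regions. Each listed region carries 1 bin of 500 bp with its read counts. The members were chosen by the highest sum of reads over the 6 control libraries, with ties broken by chromosome and then start. The choice used the control reads, so the level in control nuclei, and with it any fold change against control, is a description and carries no p-value here.

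The assay was ATAC-seq, in which a transposase inserts sequencing adapters into DNA that is not covered by nucleosomes, so that the number of reads in a window measures its accessibility. Prrx1(R1A)-/- mice were homozygous for an allele of a noncoding region near Prrx1, a paired-related homeobox transcription factor gene. This group had 4 animals with 1 library each. The control group had 4 animals and 6 libraries, since animals 1 and 3 had a repeat library each. All mice were 8 to 12 weeks old, and both atria of an animal went into 1 preparation. Nuclei were then sorted for PCM1, a protein at the nuclear envelope of cardiomyocytes, and fragments were read from both ends with 150 bp reads. The sources used here do not give the bounds of the allele, the strain or the sex of the animals.

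Open chromatin in a differentiated cell is found mainly at promoters, where transcription starts, and at enhancers, which lie within or between genes and are bound by the transcription factors of that cell type. Promoters of broadly used genes are often rich in CpG dinucleotides and are open in many tissues, whereas enhancers around contractile and calcium-handling genes are typical of cardiomyocytes. In bulk nuclei, fewer nuclei of a type and less accessible DNA per nucleus cannot be told apart.

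Promoter sequence is shown for 4 members whose bin or region reached an annotated start site, because start sites are where members lay more often than the other listed regions, as described further on. They were chosen after their motifs were seen, 2 with a CArG box and 2 with GC boxes. Each line gives the 200 bases upstream of the start, 5′ to 3′ on the strand of the gene, from the RefSeq promoter table of GRCm38.p6 (the coordinates of mm10). The Actc1 stretch lies at chr2:114052876-114053075 on the minus strand and the Myl9 stretch at chr2:156775264-156775463 on the plus strand, and both belong to members that were lower in Prrx1(R1A)-/- nuclei. Their capitals mark a CArG box, the motif bound by serum response factor. The Osbp stretch lies at chr19:11965644-11965843 and the Vps4a stretch at chr8:107031069-107031268, both on the plus strand, and belong to members listed as higher. Their capitals mark GC boxes (GGGCGG on either strand), the motif bound by Sp factors. The Myl9 stretch also holds 3 GC boxes, left in lower case.
Actc1: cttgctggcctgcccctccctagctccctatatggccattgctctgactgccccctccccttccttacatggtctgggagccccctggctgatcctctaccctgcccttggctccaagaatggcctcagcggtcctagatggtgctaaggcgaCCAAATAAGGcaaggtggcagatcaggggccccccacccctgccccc
Myl9: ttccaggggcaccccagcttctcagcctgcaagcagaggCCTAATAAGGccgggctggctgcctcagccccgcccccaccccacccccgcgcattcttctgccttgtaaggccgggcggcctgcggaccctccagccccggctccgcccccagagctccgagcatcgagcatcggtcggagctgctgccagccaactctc
Osbp: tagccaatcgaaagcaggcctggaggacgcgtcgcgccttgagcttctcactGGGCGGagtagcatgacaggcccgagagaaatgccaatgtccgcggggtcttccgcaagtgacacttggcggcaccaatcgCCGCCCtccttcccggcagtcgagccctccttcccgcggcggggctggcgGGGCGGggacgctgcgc
Vps4a: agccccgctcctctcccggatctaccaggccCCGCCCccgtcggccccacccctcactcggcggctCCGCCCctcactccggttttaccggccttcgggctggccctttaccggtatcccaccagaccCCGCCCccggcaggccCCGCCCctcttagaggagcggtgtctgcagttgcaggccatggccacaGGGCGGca

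The sum of control reads per member ranged from 765 to 3101 with a median of 973, against a median of 257 over all listed regions. The last members inside the limit, near Trip12, Cbln1 and Mfn2, had 912, 833 and 365 reads in the 4 Prrx1(R1A)-/- libraries, against 767, 767 and 765 in the 6 control libraries. The first regions outside it, near Trdn, Atp2a2 and Gata4, had 116, 358 and 305 reads in Prrx1(R1A)-/- libraries, against 764, 763 and 762 in control libraries. These sums are not scaled for depth or for the number of libraries, so their ratios are not fold changes. The deposited log2 changes (Prrx1(R1A)-/- over control) were 0.60, 0.53 and -0.59 inside the limit and -1.89, -0.57 and -0.78 outside it. Reads in the 400 bins came to between 38105 and 106338 per library. They made up 20.4% to 21.6% of the reads in listed bins in Prrx1(R1A)-/- animals, against 23.6% to 25.1% in control animals, a difference in the direction that ranking on control reads favours.

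Animals of 1 group resembled one another more closely at these bins, which hold more reads, than over the whole table. The coefficient of variation of scaled reads across animals had a median of 11.9% in Prrx1(R1A)-/- and 13.1% in control nuclei, against 18.02% and 20.9% over all listed regions. Scaled reads are an animal's reads divided by a factor for its depth, with the difference between groups set to the scale of the authors' fold changes. Across the members, the log2 ratio of 2 Prrx1(R1A)-/- animals had an SD of 0.29 to 0.32 and that of 2 control animals an SD of 0.30 to 0.40. The repeat libraries differed less, with an SD of 0.23 for control animal 1 and 0.22 for control animal 3. They were summed, so that n is 4 animals in each group.

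In the authors' deposited table, 223 of the 400 members (55.8%) were higher in Prrx1(R1A)-/- nuclei and 177 (44.2%) were lower. Over all 5327 listed regions 66.7% were higher and 33.3% lower, and since the members were ranked on control reads nothing is read from that difference. A refit of the same counts on the authors' scale with edgeR's quasi-likelihood test called all 5327 listed regions in their deposited direction (66.7% higher, 33.3% lower), the members included, so it adds no check of the members. With TMM factors, which move the log2 changes of listed regions by a median of -0.61, 98 of the 223 higher members had a change below 0, and 14 were called higher, against 18.5% of all listed regions. DESeq2 with its own size factors called 12 members higher, against 16.2% of all listed regions. Both scalings move every change downwards, so that all 177 lower members, like all lower regions (33.3% of those listed), had to stay lower under them. The table holds called regions only, so neither set of factors can be checked on unchanged regions, and the direction of most higher members therefore depends on the scale.

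Fold changes of the members were modest, in a table that holds called regions only. On the deposited log2 scale (Prrx1(R1A)-/- over control, sign turned from the deposited one), the higher members lay between 0.42 and 1.33 with a median of 0.58. The lower members lay between -1.36 and -0.46 with a median of -0.69. The other listed regions had deposited medians of 0.82 among the higher and -0.81 among the lower. A change below 0.6 in size was found in 140 of the 223 higher members (62.8%) and in 23.7% of the lower members, against 5.26% of the other higher and 3.002% of the other lower regions. A change over 1 was found in 6 higher and 15 lower members (2.69% and 8.47%), against 21.6% of the other higher and 14.3% of the other lower regions. The members, with more reads, had a median edgeR SE of 0.14 log2, against 0.22 over all listed regions. A smaller change can be called where the SE is lower, and regions that were not called are missing. The contrasts in size with the other regions are therefore expected from a ranking on reads, and nothing is read from them.

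**Figure D1:**
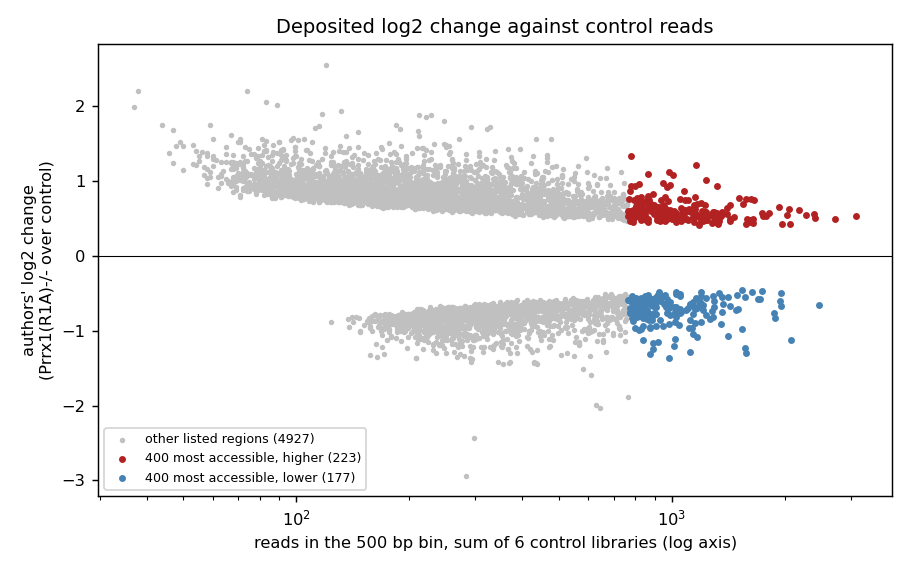
Authors' deposited log2 change (Prrx1(R1A)-/- over control, vertical axis) against the sum of reads over the 6 control libraries (horizontal log axis) for the 5327 listed regions; coloured points are the 400 members. The 223 higher members lie between 0.42 and 1.33 and the 177 lower members between -1.36 and -0.46. The grey regions with fewer reads reach further from 0, but only called regions are listed, so nothing is read from this contrast. With TMM factors 98 of the 223 higher members lie below 0.

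At 207 members all 4 Prrx1(R1A)-/- animals had more scaled reads than all 4 control animals, an order found at 60.8% of all listed regions. At 161 members all 4 Prrx1(R1A)-/- animals had fewer, against 29.4% of all listed regions. These shares of all listed regions mix both directions. Within a direction the shares were close, at 92.8% of the higher members against 91.2% of the other higher regions. Among lower members the share was 91.0%, against 87.8% of the other lower regions. The animals of the 2 groups overlapped at the remaining 32 members. Directions also varied along the ranking. Of the first 100 members 63 were higher, of the next 100 56, of the next 49 and of the last 55. Below the members, 47.5% of the regions ranked 401 to 800 were higher, and 88.4% of those ranked 3201 to 5327. The ranking used control reads and only called regions are listed, so nothing is read from these shares.

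Of the members 234 (58.5%) were also among the 400 regions with the most Prrx1(R1A)-/- reads. These were all 223 higher members and 11 of the 177 lower ones. The 166 members that dropped out were all lower and the 166 regions that took their place were all higher. Ranked by Prrx1(R1A)-/- reads, the top 400 thus held 389 higher and 11 lower regions, and ranked by the mean of both groups they held 340 higher and 60 lower.

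**Figure D2:**
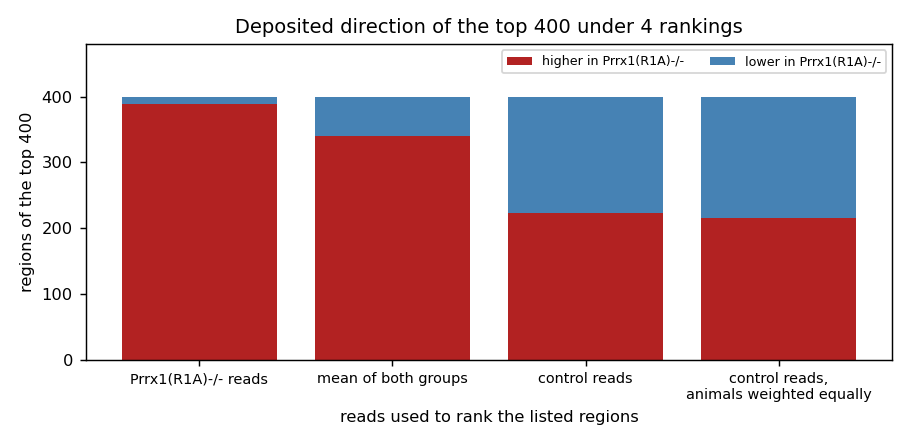
Number of higher (red) and lower (blue) regions, by deposited direction, among the 400 highest listed regions under 4 rankings. The lower regions number 11 when ranked by Prrx1(R1A)-/- reads, 60 by the mean of both groups, 177 by control reads and 184 with control animals weighted equally; the direction of the higher regions is on the authors' scale, and with TMM factors 98 of the 223 higher members turn below 0.

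Members listed as higher headed the ranking: 8 of the 10 highest were higher, and 2, at Actc1 and Ccn2, were lower. Among the 8 higher ones was a member 8.8 kb from Phf21a, which encodes a subunit of a histone demethylase corepressor complex (chr2:92174251-92175000). It had 681.4, 796.0, 668.2 and 880.9 scaled reads in the 4 Prrx1(R1A)-/- animals, against 547.1, 472.6, 477.1 and 560.9 in the 4 control animals. No animal of one group reached the range of the other. The means were 757 ± 101 in Prrx1(R1A)-/- and 514 ± 46.1 in control nuclei (SD, n = 4 each), with a log2 change of 0.55 ± 0.11 (SE) on the authors' scale and -0.06 with TMM factors. Log2 changes of single regions, here and below, come from the edgeR refit unless called deposited. They differ from the deposited ones, which was 0.50 for this member.

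A member inside Trpm4, the gene of a calcium-activated cation channel, averaged 669 ± 49.9 in Prrx1(R1A)-/- and 448 ± 51.6 in control nuclei, a change of 0.57 that became -0.04 with TMM. Members inside Dhdh, a dihydrodiol dehydrogenase gene, and Glyr1, which encodes a chromatin-binding protein, had changes of 0.65 and 0.70, and one 7.2 kb upstream of Gpr101, an orphan receptor gene, had 0.65. On the TMM scale these 3 were at 0.04, 0.09 and 0.05. The most remote of the 10 lay 1121.3 kb from its nearest protein-coding gene, Fam98a, at chr17:76673251-76674000. Its change was 0.56, or -0.04 with TMM, and the lowest Prrx1(R1A)-/- animal, at 600.4 scaled reads, stood below the highest control animal at 611.

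Osbp, an oxysterol-binding lipid transfer protein gene, had a member over its start site, whose sequence is given above. The 4 Prrx1(R1A)-/- animals had 498.2, 565.3, 579.8 and 566.1 scaled reads, against 387.8, 453.8, 351.6 and 464.5 in the 4 control animals. The groups did not overlap, although the lowest Prrx1(R1A)-/- animal stood close to the highest control animal. The log2 change was 0.43 ± 0.12 (SE), the lowest of all higher members on this scale, and -0.18 with TMM. Vps4a, an ATPase of the machinery that remodels membranes, averaged 293 ± 6.90 in Prrx1(R1A)-/- and 199 ± 29.6 in control nuclei at the member over its start (SD, n = 4 each), a change of 0.56 that became -0.05 with TMM.

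The highest lower member lay over the start of Actc1, the cardiac alpha-actin gene (chr2:114052751-114053500). It had 361.8, 265.7, 233.8 and 273.0 scaled reads in Prrx1(R1A)-/- animals, against 534.0, 526.7, 441.9 and 343.1 in control animals. The highest Prrx1(R1A)-/- animal stood above the lowest control animal, so the groups overlapped. The log2 change was -0.70 ± 0.14 (SE) and -1.31 with TMM. The other lower member among the 10 highest lay at Ccn2, which encodes a secreted matricellular protein induced by TGF-beta and by stretch. Its region was the widest of all members, at 7500 bp (chr10:24593001-24600500). Prrx1(R1A)-/- animals had 165.5, 194.8, 175.8 and 165.8 scaled reads, against 382.0, 514.9, 393.7 and 351.8 in control animals. The groups were far apart, with a log2 change of -1.21 ± 0.13 (SE).

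**Figure D3:**
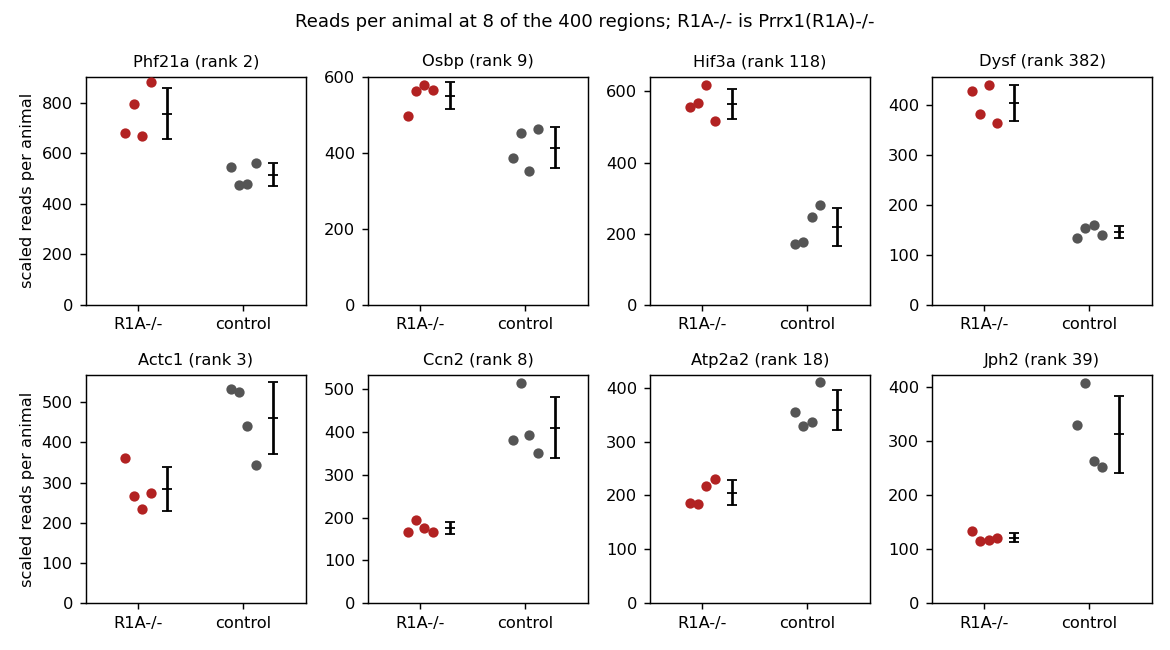
Scaled reads per animal (points, n = 4 per group) with the mean and SD (bar) at 8 of the 400 regions, Prrx1(R1A)-/- on the left of control in each panel, on the authors' scale. The groups are apart at Phf21a, Hif3a, Dysf, Ccn2, Atp2a2 and Jph2, apart by little at Osbp, and overlap at Actc1; on the TMM scale the change at Phf21a is -0.06 and that at Osbp is -0.18.

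The members with the largest changes were further down the ranking. The lowest deposited changes, with 1 member per gene, were near Olfml2b, Gata5, Blk, Jph2, Srd5a1, Adgrl2, Cox18 and Osr1. Olfml2b, which encodes an olfactomedin domain protein, had a member at chr1:170650751-170653250 with 75.71, 64.92, 67.48 and 60.29 scaled reads in Prrx1(R1A)-/- animals, against 168.7, 261.0, 188.1 and 182.8 in control animals. The groups were far apart and the log2 change was -1.53 ± 0.17 (SE) in the refit, against a deposited -1.36. Osr1, a zinc finger transcription factor gene, was 225.8 kb from its member, which averaged 60.0 ± 21.2 scaled reads in Prrx1(R1A)-/- and 165.5 ± 21.1 in control nuclei (SD, n = 4 each), a change of -1.50. The other 6 lay between -1.42 and -1.35 in the refit. A member near Gm10573 was at -1.46 there, but was not among those picked by deposited change.

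Jph2 encodes junctophilin 2, which holds the T-tubule and the sarcoplasmic reticulum together. Its member of lowest change lay inside the gene at chr2:163350751-163354750, 43.5 kb downstream of the start. It had 132.9, 113.9, 116.0 and 120.6 scaled reads in Prrx1(R1A)-/- animals, against 329.6, 406.7, 263.1 and 251.7 in control animals. The 4 Prrx1(R1A)-/- animals lay close together and well below every control animal, with a log2 change of -1.35 ± 0.15 (SE). All 3 members of Jph2 were lower, and 2 of them had groups that did not overlap.

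At the other end, the highest deposited changes were near Dysf, Hif3a, Zfp521, Arl4a, Myo10, Slc25a26, Rpl3l and Polr3gl. With their large changes, these 8 stayed above 0 under the downward shift of the TMM scale, and its calls of 14 higher members include them. Dysf, which encodes the membrane repair protein dysferlin, lay 13.9 kb from its member at chr6:84224501-84226250. That bin had 427.8, 381.5, 441.0 and 365.1 scaled reads in Prrx1(R1A)-/- animals, against 134.1, 152.8, 159.8 and 139.0 in control animals. The groups were far apart, with a log2 change of 1.47 ± 0.13 (SE) in the refit, against a deposited 1.33, and 0.85 with TMM.

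Hif3a, a hypoxia-inducible factor subunit gene, held its member inside the gene, 3.9 kb downstream of the start. Prrx1(R1A)-/- animals had 556.3, 566.3, 617.8 and 515.8 scaled reads, against 171.4, 176.3, 247.8 and 279.2 in control animals. The groups were again far apart, with a log2 change of 1.36 ± 0.14 (SE) and 0.75 with TMM. Rpl3l, a muscle-specific ribosomal protein gene, had its member over the start site, at 326 ± 41.4 scaled reads in Prrx1(R1A)-/- and 163 ± 19.0 in control nuclei (SD, n = 4 each). That change was 1.03, and 0.42 with TMM. Myo10, an unconventional myosin gene, was at 1.19, or 0.58 with TMM. The other 6 of those 14, named after their values were seen, were members near Kalrn, Adra1b, Dnajc11, Hspb7, Tshz1 and Mcfd2.

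Lower members were often wide. A width of only 500 bp was found for 24.8% of members and 41.2% of the other listed regions. The median width was 750 bp for higher and 1000 bp for lower members. Widths over 2000 bp were found for 19 members, 3 higher (1.35% of the higher) and 16 lower (9.04% of the lower), against 1.38% of the other higher and 1.69% of the other lower regions.

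In position, members lay inside protein-coding genes about as often as the rest, 249 of 400 (62.3%) against 60.8% of the other listed regions. They differed near gene ends: 72 members (18%) had their bin within 1 kb of one, against 9.05% of the other regions. Of the higher members 21.5% and of the lower members 13.6% did so, against 10.1% of the other higher and 6.94% of the other lower regions. No test was run on these shares. Members over 50 kb from any protein-coding gene numbered 49 (12.3%), against 15.3%. Of these, 2 were over 500 kb away, the one assigned to Fam98a and one 1257.1 kb from Zpld1 at chr16:53966251-53967000, both listed as higher.

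Start sites were taken from the RefSeq promoter table, which covers 384 of the members. The bin was within 1 kb of a start at 52 members (13.5%), against 5.94% of the other listed regions. The share was 17.0% among higher and 9.30% among lower members, against 6.75% and 4.23% among the other higher and lower regions. The bin lay over a start at 28 members (7.29%), against 1.91% of the others. Of these 28, 24 were listed as higher and 4 as lower, but 17 of the 24 had a change below 0 with TMM factors. The 24 included P4hb (a protein disulphide isomerase of the endoplasmic reticulum), B4galt5 (a galactosyltransferase), Ubtf (a factor of ribosomal RNA transcription), Smndc1 (a splicing factor) and Neurl4, together with the muscle genes Rpl3l and Trim54. The 4 lower ones were at Actc1, Jph2, Myl9 and Pfkl, the last a phosphofructokinase gene. These names were chosen after the values were seen. Members over 50 kb from a start made up 33.6%, against 45.4% of the others.

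**Figure D4:**
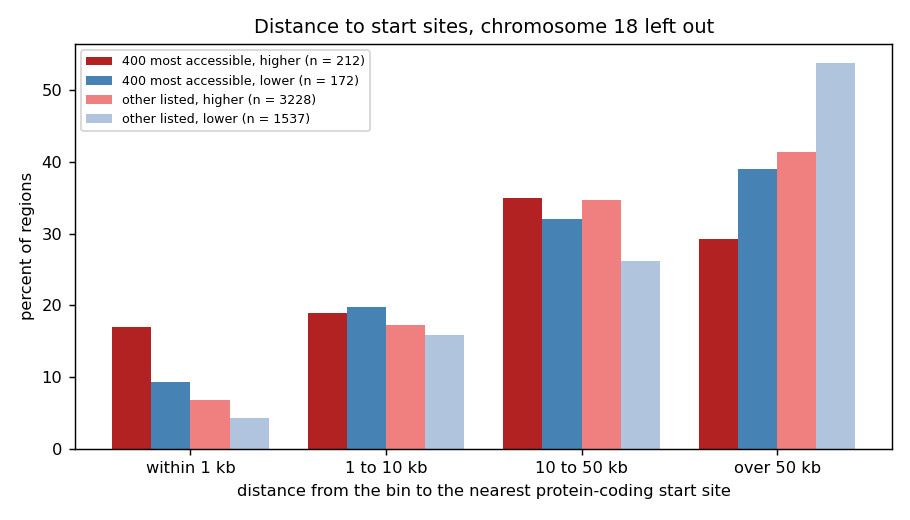
Percent of regions (vertical axis) by distance from the bin to the nearest protein-coding start site, for higher and lower members (dark bars) and the other listed regions (pale bars). Within 1 kb the shares were 17.0% and 9.30% for higher and lower members and 6.75% and 4.23% for the other higher and lower regions; higher is by deposited direction, and with TMM factors 98 of the 223 higher members turn below 0.

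The sequence around those starts was described from promoter windows. Windows of 250 bases upstream to 50 downstream of a start overlapped 51 members, 38 higher and 13 lower, with 59 windows between them. The 45 windows at higher members held a median of 24 CpG dinucleotides and the 14 at lower members 7, equal to the median of 7 over all 32851 windows. This contrast depends on the scale: the 31 windows at higher members whose change was below 0 with TMM had a median of 27 CpG dinucleotides, and the 14 at those that stayed above 0 had 6.5. No test was run on these counts. The other listed regions had medians of 16 in the higher (168 windows) and 5 in the lower (34 windows). G and C made up a median of 64% of bases at higher members and 61.8% at lower members, against 52.7% over all windows.

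Motifs were sought on both strands of these windows. Motif counts were not split by scale, and 31 of the 45 windows at higher members belong to members below 0 with TMM. GC boxes (GGGCGG) were in 30 of 45 windows at higher members (66.7%) and 6 of 14 at lower members (42.9%), against 35.7% of all windows. Of the stretches above, that of Vps4a holds 5 of them, those of Osbp and Myl9 hold 3 each and that of Actc1 holds none. CArG boxes were in none of the 45 windows at higher members and in 2 of the 14 at lower members, those of Actc1 and Myl9 shown above, against 1.63% of all windows. The match begins 47 bases upstream of the start at Actc1 and 161 bases upstream at Myl9, a myosin regulatory light chain gene. CCAAT was found in 40% of the windows at higher members and 50% at lower members, against 37.4% of all windows. TATAAA was in 11.1% at higher and 21.4% at lower members, against 13.6%. The cAMP response element TGACGTCA was in 1 window at higher and 0 at lower members (1.79% of all windows), the E-box CACGTG in 3 and 1 (7.15%), and the ETS motif CCGGAAG in 5 and 1 (8.86%). The remaining motifs thus differed by few windows, and windows of alternative starts of 1 gene share sequence.

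Other annotated genes at the bins were few. A long noncoding RNA gene overlapped the bin at 59 members (14.8%), against 12.7% of the other listed regions. A tRNA gene overlapped it at 2 members and at 0 of the other 4927 regions. These were the glycine tRNA gene n-TGgcc13 near Fcgr3 at chr1:171074251-171074750, and the leucine tRNA gene n-TLcaa1 near Trim27 at chr13:21200001-21200500. Near Fcgr3 the bin averaged 168 ± 26.5 scaled reads in Prrx1(R1A)-/- and 243 ± 33.4 in control nuclei, and near Trim27 it averaged 162 ± 26.9 in Prrx1(R1A)-/- and 229 ± 11.1 in control nuclei (SD, n = 4 each). Both were lower in all 4 Prrx1(R1A)-/- animals than in all 4 control animals, by -0.55 and -0.50 log2. Chromosome 2 held 43 members, chromosome 11 37 and chromosome 4 30. The X chromosome held 3 and the Y chromosome none of its 12 listed regions.

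The 400 members lay nearest to 346 genes, of which 312 had a single member, 30 had 2 or 3 and 4 had 4 or more. Among the 34 genes with several, 19 had only lower members, 13 only higher members and 2 had both. A second member lay within 50 kb for 93 members, and these neighbours formed 13 runs of 3 or more. Members in 1 run share a locus and are not independent of one another.

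The longest run by number was at Atp2a2, which encodes SERCA2, the calcium pump of the sarcoplasmic reticulum. Its 11 members spread over 36.25 kb (chr5:122450751-122487000) and all were lower, in each case with all 4 Prrx1(R1A)-/- animals below all 4 control animals. That order was found at 91.0% of all lower members, so it does not set this run apart. The highest of them, 2.0 kb outside the gene, had 185.7, 184.8, 217.7 and 231.1 scaled reads in Prrx1(R1A)-/- animals, against 356.3, 329.2, 336.8 and 411.9 in control animals. The groups were well apart, with a log2 change of -0.82 ± 0.13 (SE). Over the 11 members the means ran from 92.3 to 205 in Prrx1(R1A)-/- and from 155 to 359 in control nuclei, and the log2 changes from -1.03 to -0.58.

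Actc1 had 4 members within 4.5 kb (chr2:114049001-114053500), all lower, with changes of -1.18 to -0.70. The groups were apart at 1 of the 4, the member 0.4 kb downstream of the start. At the member 2.1 kb downstream, Prrx1(R1A)-/- animals had 147.0, 61.92, 61.78 and 77.04 scaled reads, against 254.1, 105.8, 171.9 and 111.4 in control animals. Animal 1 stood highest in both groups there, and at 3 of the 4 members in each group. Cacnb2, the gene of a calcium channel beta subunit, had 4 lower members with means of 91.7 to 136 in Prrx1(R1A)-/- and 158 to 194 in control nuclei. The groups were apart at all 4, as at 91.0% of all lower members.

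Myl4, the atrial essential myosin light chain gene, had members of both directions within 22.25 kb. The one 17.1 kb downstream of the start had 308.1, 356.6, 350.7 and 351.7 scaled reads in Prrx1(R1A)-/- animals, against 244.7, 261.0, 233.5 and 249.2 in control animals. All 4 Prrx1(R1A)-/- animals were higher, with a log2 change of 0.47 that became -0.14 with TMM. The other 3, 31.8 to 38.8 kb downstream of the start, were lower with changes of -0.91 to -0.70. Of these, 2 had groups that did not overlap.

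A run of 4 lower members over 12.75 kb (chr2:180385501-180398250) was assigned to Gata5 and Slco4a1, whose gene bodies are about 50 kb away or more. The members lay between 0.4 and 3.9 kb from Mir1a-1 or Mir133a-2, the genes of the muscle microRNAs miR-1 and miR-133. The member of largest change had 123.2, 103.9, 82.69 and 100.5 scaled reads in Prrx1(R1A)-/- animals, against 356.3, 214.0, 297.4 and 210.3 in control animals. The groups were far apart, with a log2 change of -1.42 ± 0.17 (SE). At both members nearest Mir133a-2 the groups overlapped, with means of 87.3 ± 26.1 and 61.6 ± 19.5 in Prrx1(R1A)-/- nuclei and 172 ± 66.1 and 137 ± 70.3 in control nuclei (SD, n = 4 each). Counted separately, animal 1 was the highest at 3 of the 4 members in Prrx1(R1A)-/- nuclei and at 3 in control nuclei. Over the 177 lower members, animal 1 was the highest in both groups at 16 and animal 2 at 30.

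A run of 4 lower members over 41.25 kb (chr4:147965251-148006500) covered Nppa and Nppb, the natriuretic peptide genes, together with Clcn6 and 2510039O18Rik. At Nppa, which encodes atrial natriuretic peptide, Prrx1(R1A)-/- animals had 186.6, 177.8, 146.4 and 160.8 scaled reads, against 278.3, 265.7, 293.7 and 283.0 in control animals. The groups were well apart, with a log2 change of -0.74 ± 0.13 (SE). At Nppb, which encodes brain natriuretic peptide, the means were 164 ± 8.04 in Prrx1(R1A)-/- and 266 ± 50.5 in control nuclei (SD, n = 4 each), a change of -0.68.

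Runs of 3 members listed as higher lay at Klf10, a zinc finger factor induced by TGF-beta, at Plin4, a lipid droplet coat protein, at Hspb7, a small heat shock protein of muscle, and across Tnip1 and Hint1. With TMM the changes were -0.09, -0.04 and 0.10 at Klf10 and 0.29, -0.05 and 0.18 at Plin4. Those across Hint1 and Tnip1 were -0.12, -0.01 and -0.08, so the direction of these runs depends on the scale. Runs of 3 lower members lay at Lmo7, Jph2, Cacnb2 and across Myh7 and Ngdn. Klf10, Plin4, Hspb7, Hint1, Tnip1, Ngdn and Lmo7 were named after their values were seen. The 3 Hspb7 members averaged 396, 279 and 286 scaled reads in Prrx1(R1A)-/- and 194, 156 and 158 in control nuclei, with changes of 1.00, 0.81 and 0.82 on the authors' scale and 0.39, 0.20 and 0.21 with TMM, where the first was called.

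By gene group, the lower members included most of those near contractile and calcium genes. Of 36 genes of the sarcomere and Z-disc, 10 had members, 4 higher and 16 lower, while all listed regions near those genes were 78 higher and 54 lower. Over all members 44.2% were lower, and the ranking used control reads, so this count and those of the lists below are a description. The median deposited log2 change of these 20 members was -0.72, against 0.48 over all members. No member lies between -0.46 and 0.42, so these medians only follow the direction of the majority. The 20 include 4 members at Actc1 and 4 at Myl4, and members of 1 run are not independent. Myh7, the slow myosin heavy chain gene, had 226 ± 32.8 scaled reads in Prrx1(R1A)-/- and 373 ± 20.9 in control nuclei at its higher-ranked member (SD, n = 4 each). Lmod2, a nucleator of thin filaments, averaged 221 ± 24.1 in Prrx1(R1A)-/- and 317 ± 25.1 in control nuclei. Tpm1, the alpha-tropomyosin gene, averaged 121 ± 20.9 in Prrx1(R1A)-/- and 268 ± 35.1 in control nuclei. At all 3 the groups did not overlap. The 4 higher members of this list were the one at Myl4 and those of Tcap, the titin cap, and Myom2, an M-band protein.

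Of 25 calcium-handling genes 2 had members, the 11 of Atp2a2 and the 3 of Jph2, all lower, against 21 higher and 70 lower among all listed regions of that list. Ion channel and conduction genes had 9 members, all lower, at Fgf12, Cacnb2, Kcnd2 and Gja1, against 32 higher and 45 lower listed. At Kcnd2, the gene of a potassium channel of the transient outward current, the higher-ranked member averaged 120.5 ± 9.11 scaled reads in Prrx1(R1A)-/- and 183 ± 26.0 in control nuclei (SD, n = 4 each). At Gja1, the connexin 43 gene, the means were 100.3 ± 9.02 in Prrx1(R1A)-/- and 151 ± 38.4 in control nuclei, and the groups overlapped. Atrial program genes had 6 members, 1 higher and 5 lower, at Nppa, Nppb and Myl4, with 14 higher and 58 lower among all listed regions.

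Stress and immediate early genes had 11 members, 4 higher and 7 lower, with 30 higher and 25 lower among all listed regions. The lower ones included Ccn2, Nppb, Ier5 and Tgfb2, and the higher ones were the 3 at Hspb7 and 1 at Myc. Tgfb2, a TGF-beta ligand, was 35.5 kb from its member, which averaged 175 ± 29.1 in Prrx1(R1A)-/- and 256 ± 26.5 in control nuclei (SD, n = 4 each). In the list of TGF-beta, BMP and Wnt signalling genes, which shares Tgfb2, both other members were listed as higher, with 12 higher and 20 lower among all listed regions. Tgfbr3, a co-receptor, averaged 298 ± 81.8 in Prrx1(R1A)-/- and 178 ± 15.2 in control nuclei, and Axin2, a Wnt target, averaged 290 ± 43.6 in Prrx1(R1A)-/- and 158 ± 26.8 in control nuclei. With TMM their changes were 0.13 and 0.31, and neither was called.

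Cardiac transcription factor genes had 3 members, the 2 lower ones assigned to Gata5 and 1 higher at Tead1, with 22 higher and 29 lower among all listed regions. Fatty acid and mitochondrial genes had 3 lower members, at Mb (myoglobin), Ogdh and Slc25a4, and 1 higher at Acsl1, a fatty acyl-CoA ligase gene, with 263 ± 54.3 scaled reads in Prrx1(R1A)-/- and 139 ± 26.5 in control nuclei over its start (SD, n = 4 each). All listed regions near genes of that list were 50 higher and 20 lower. Glucocorticoid and metallothionein targets had 3 members, all listed as higher, at Klf9 and Mt1, with 56 higher and 1 lower among all listed regions. Mt1, a metallothionein gene, averaged 287 ± 22.7 in Prrx1(R1A)-/- and 181 ± 12.9 in control nuclei, a change of 0.66 that was 0.05 with TMM. Klf9 was at 0.61, and at 0.00 with TMM. Circadian clock genes had 2 higher members at Tef and 1 lower at Rora, with 14 higher and 3 lower among all listed regions. Intercalated disc and costamere genes had 2 higher, at Utrn and Dysf, and 1 lower, at Nexn, with 35 higher and 10 lower listed.

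**Figure D5:**
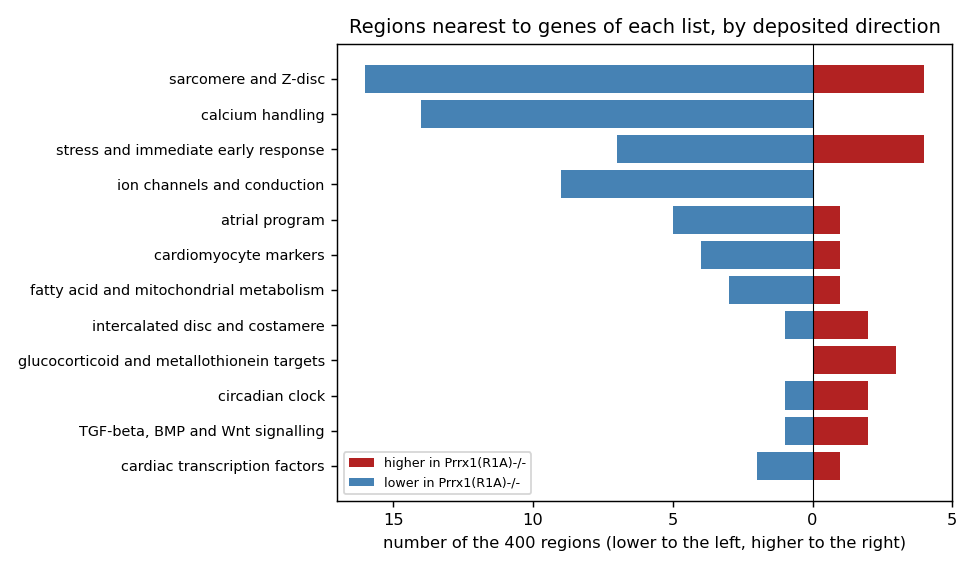
Number of the 400 regions whose nearest gene is in each list, lower to the left and higher to the right of 0, by deposited direction. Calcium handling (14 lower) and ion channels (9 lower) lie to the left alone and glucocorticoid and metallothionein targets (3 higher) to the right alone; the higher direction depends on the scale, since with TMM factors 98 of the 223 higher members turn below 0.

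Marker lists were counted as well. Of 8 cardiomyocyte markers, Nppa and Myl4 had 5 members, 1 higher and 4 lower, which is 10% of the 50 listed regions near these markers, where members are 7.51% of all listed regions. Lists of fibroblast, endothelial, smooth muscle, immune, neural, adipocyte and epicardial markers had 0 members. They had 1, 4, 6, 3, 1, 5 and 1 listed regions, with at most 656 control reads, at a bin of the smooth muscle list. Regions that were not called are not analysed here, so these counts do not check the sort and levels at other marker genes were not compared.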

How the data were processed

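ATAC-seq libraries of PCM1-sorted atrial nuclei came from 4 Prrx1(R1A)-/- and 4 control mice. The submitters' processing notes name BWA, bedtools, DESeq2 and mm10. The sources used here do not give the filters, read shifting, duplicate handling or test design. Per the file headers, the deposited table gives reads per 500 bp bin; in 17 cells 0.1 is written, so the deposited values were treated as estimated counts and rounded to whole numbers. The authors' deposited log2 fold change runs control over Prrx1(R1A)-/-, and its sign was turned. The deposited p-values, adjusted by the authors, were used only to check that all lie under 0.05. The deposited group signal is a geometric mean of the counts and set the scale between groups. Only called regions are listed, and total reads per library were not used, so full depth is unknown.

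To set the scale, a line was fitted between the authors' log2 change and the log2 ratio of both group signals over 1432 regions with both at 50 or more (slope 0.874, offset 0.142). Factors within a group were median ratios. Repeat libraries were summed per animal. All 5327 regions were fitted with edgeR 4.0.16 in R 4.3.3 (glmQLFit, glmQLFTest, Benjamini-Hochberg at 0.05). A check on simulated data came before the fit, but its result is not reported here, so nothing is drawn from it. Alternatives were TMM factors, DESeq2 1.42.0, a low-count filter, a replicate block, leaving out each animal and other rankings.

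Bins were assigned to the nearest of 21896 protein-coding gene bodies in RefSeq GRCm38.p6, and this nearness is no evidence of regulation. Start sites came from the RefSeq promoter table, which matched 17491 of these genes and holds none on chromosome 18. No exon annotation was used, so exonic and intronic positions are not separated. Named regions were the 10 highest by control reads, the 8 lowest and 8 highest folds, all members of genes with 4 or more, up to 4 genes per list, and those beside the limit. Members and gene lists were chosen with earlier results of these data known. Results for some regions covered by the naming rule are not reported here.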

Additional observations from a re-analysis of the deposited data

Results flagged for a closer look

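Of 150 sets of 4 animals (75 named regions in each group), 9 had 1 animal far from the other 3 by Dixon's ratio at the 95% level, which chance gives in about 1 in 20 sets. In Prrx1(R1A)-/- nuclei, animal 1 stood above the rest at Nppb (rank 57, 176.1 scaled reads, the others 158.7 to 160.8) and below the rest at Myl4 (rank 82, 308.1, the others 350.7 to 356.6). Animal 2 stood below the rest at Tpm1 (rank 53, 89.89, the others 128.5 to 135). Animal 3 stood above the rest at Mb (rank 108, 194.8, the others 118 to 127.3). Animal 4 stood below the rest at Actc1 (rank 203, 63.64, the others 109.2 to 111.9) and at Tead1 (rank 349, 199.3, the others 303.7 to 319.4). In control nuclei, animal 4 stood above the rest at Myh7 (rank 14, 404.4, the others 361.3 to 364.4) and below the rest at Actc1 (rank 203, 127.7, the others 190.4 to 194.1). Control animal 1 stood below the rest at Adgrl2 (rank 263, 128.4, the others 187.6 to 197.5). The Actc1 region of rank 203 is the one region where an animal stood apart in both groups.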

How the results depend on the processing

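The scale decided how many members were called higher. There were 223 on the authors' scale, 14 with TMM factors and 12 with DESeq2. Both scalings move all changes downwards, so the 177 lower calls could not be lost. Without any single animal, with a low-count filter or with only the first library of control animals 1 and 3, edgeR called 223 higher and 177 lower, as it did with a replicate block. The table holds only regions called from these counts and nearly all stay called in each setting, so these counts say nothing about stability. Same-numbered animals of the 2 groups had correlations of 0.26, 0.04, -0.04 and 0.00015 in their deviations over 5327 regions, not all over 0.1, so the numbers were not taken as pairs. Animals of different number had correlations of -0.15 to 0.08, so the 0.26 of animal 1 was the highest. Whether animal 1 of both groups shares a source of variation was not tested. The ranking set the directions: by Prrx1(R1A)-/- reads 97.2% of the top 400 were higher and 2.75% lower, and by the mean of both groups 85% and 15%, against 55.8% and 44.2% by control reads. Leaving out 1 control animal from the ranking kept 370 to 392 members and gave 53.8% to 57% higher and 43% to 46.2% lower. The highest 200 lay inside a gene in 56% of cases, against 62.3% of the 400. The share within 1 kb of a gene end lay between 16.8% and 21.5% under all rankings tried. The order holds only among called regions, and levels of 4 animals a group limit the precision.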
